A study of Kandelia obovata with 24 samples.

Results

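The 100 most abundant unigenes with steady levels through a natural frost were described in leaves of *K. obovata*, a mangrove tree. They were chosen from the 33344 unigenes of the table on the scale log2(TPM + 1), where TPM is a transcript abundance corrected for length and scaled to the same total in every library. A unigene was taken as steady when the highest and the lowest of its 8 group means lay less than 1 apart on this scale, which is less than a 2-fold difference at these levels. This held for 27919 unigenes (83.7%), and 14571 of these had a mean above 0 and up to 1 TPM, where the added 1 holds ranges down. The 100 steady unigenes with the highest mean TPM over the 24 libraries were kept. The 12 unigenes that the study named as network hubs were to be left out, and none of them was steady. The group means and the mean TPM therefore chose the members, so their steadiness and their abundance are not results.

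Leaves were taken from 3-year-old seedlings in a field trial north of their place of origin, and RNA-Seq was performed on 8 groups of 3 biological replicates. The CK groups held wild type seedlings given no abscisic acid (ABA), a plant hormone of the response to drought and cold, sampled at 10.2, -4.1, -5.3 and 9.7 ℃, and each group is written with its temperature, as CK (10.2 ℃). The ABA-100 groups held wild type seedlings assigned to a foliar spray of ABA at 100 mg per litre, in ethanol with Tween-80, and were sampled at the same 4 stages. The temperatures name the stages before the frost, at its beginning, at its coldest sampling and after it. By the study's methods spraying followed the first sampling, so leaves of ABA-100 (10.2 ℃) had not yet received ABA. The same seedlings were sampled at each stage and the leaves at -4.1 and -5.3 ℃ were taken at other hours of the day than those at 10.2 and 9.7 ℃, so for these stages temperature and time of day cannot be told apart.

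In leaves of land plants, a small number of nuclear genes usually takes a large part of the mRNA, among them those of the small subunit of Rubisco and of the chlorophyll a/b-binding proteins of the light-harvesting antenna. Transcripts that are abundant and change little are also the usual candidates for reference genes, against which the other genes of a sample are measured. A TPM value is a share of the transcripts of its library, so a steady TPM is a steady share, and a larger share of some transcripts has to be met by a smaller share of others. The identifiers of the unigenes were not paired with gene names in the sources used here, so no member is given a role and the leaf label could not be checked against marker genes. An identifier such as DN24444_c2_g1 holds the number of a Trinity read cluster (DN), of a component within it (c) and of a gene within that (g).

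A volcano plot of the study is titled in the picture as CK (10.2 ℃) and CK (-4.1 ℃), although its legend lists other panels. It draws unigenes as up-regulated that were lower in the libraries labelled CK (-4.1 ℃). The labels of the groups or the direction of the plot may be swapped, and this was not settled. Between the libraries labelled ABA-100 (10.2 ℃) and CK (10.2 ℃), neither of them sprayed by the methods, 36.4% of the unigenes tested were called different, and between those labelled CK (-4.1 ℃) and CK (10.2 ℃) 1.66%, with the CK (10.2 ℃) libraries shared by both contrasts. Groups are named here as the libraries are labelled, and the choice of the members does not depend on which name each of the 8 groups carries. The library farthest from the other libraries of its group, by the median absolute deviation from the group mean over all 21523 unigenes tested, was replicate 3 in 7 of 8 groups and replicate 1 in ABA-100 (9.7 ℃). CK (-4.1 ℃) replicate 3 and ABA-100 (9.7 ℃) replicate 1 stood apart most, with a median absolute deviation of 0.13 and 0.12 on the log2 scale against 0.06 to 0.10 in the other libraries. Replicates are numbered by the titles of the libraries, and the library codes in the labels carry other numbers in 2 groups, with 4 for replicate 3 of CK (9.7 ℃), and none, 1 and 2 for replicates 1, 2 and 3 of ABA-100 (9.7 ℃).

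The members had a TPM above 0 in every library, and the lowest value of any of them was 647 TPM. All 100 passed the filter of 1 TPM in at least 3 libraries that was set for the tests. Their mean TPM ran from 962 to 45792, with a median of 1766, and 8 members were above 10000 TPM while 53 were below 2000 TPM. They were all of the 10 most abundant unigenes of the table, 46 of the 50 most abundant, 86 of the 100 most abundant and 100 of the 120 most abundant. Abundance was thus concentrated in few of them, with 44.9% of the summed TPM of the members in their 10 most abundant and 11.3% in DN24444_c2_g1 alone.

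**Figure D1:**
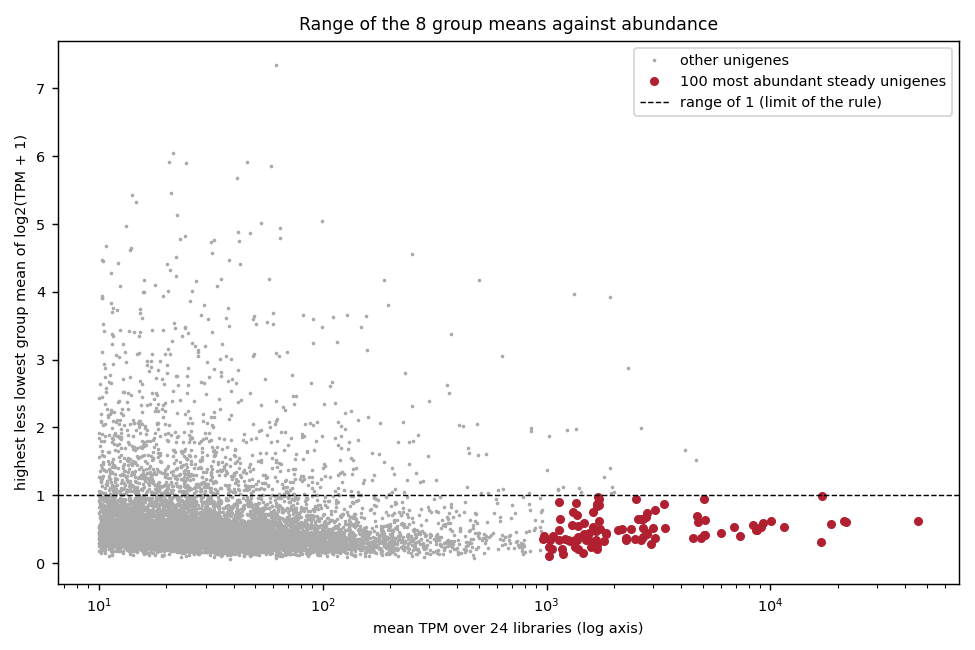
Range of the 8 group means of log2(TPM + 1) against the mean TPM over 24 libraries (log axis), 1 point per unigene with a mean of at least 10 TPM, the members in red. The members fill the region below the dashed limit of 1 from 962 TPM upwards, and 20 unigenes of the same abundance lie above that limit.

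At the lower end of abundance, the members at ranks 99 and 100 were DN14075_c1_g1 with a mean of 974 TPM and DN12962_c0_g1 with 962 TPM. The next steady unigenes were DN23925_c0_g1 with 957 TPM and DN11103_c1_g1 with 955 TPM, so the limit in abundance divides unigenes of nearly the same level. At the limit in range, the members just inside were DN3031_c2_g1 with 0.98, DN24863_c0_g1 with 0.98, DN24882_c1_g1 with 0.95 and DN16845_c0_g1 with 0.94 on the log2 scale. Just outside were DN12921_c1_g1 with 1.03, DN11837_c2_g1 with 1.05 and DN25320_c1_g1 with 1.05. The 3 just outside followed the members DN24882_c1_g1, DN24935_c0_g1 and DN13072_c2_g1 over the 24 libraries, with Pearson's r of 0.910 to 0.966 on the log2 scale, so the limit also divides unigenes of like pattern. The most abundant unigene that was not steady was DN7787_c4_g1, with a mean of 4636 TPM and a range of 1.52, followed by DN7787_c0_g1 with 4147 TPM and 1.67. DN24482_c1_g1 (2632 TPM) and DN3254_c0_g1 (2316 TPM) came next, and DN3254_c0_g1 had a range of 2.88, from 562 TPM in a library of CK (10.2 ℃) to 5097 TPM in one of ABA-100 (-4.1 ℃).

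DN24444_c2_g1 was the most abundant unigene, with a mean of 45792 TPM, which is more than the next of the members by a wide margin (DN19787_c1_g1, 21810.3 TPM). In CK its libraries had 48509.9, 46318 and 39988 at 10.2 ℃, 46774, 45707 and 34986 at -4.1 ℃, 38279.6, 38269.8 and 35738 at -5.3 ℃, and 48346, 48223 and 42788 at 9.7 ℃ (TPM). In ABA-100 they had 61196, 54934 and 56364 at 10.2 ℃, 42988, 42685 and 42843 at -4.1 ℃, 52560.0, 50802 and 51546 at -5.3 ℃, and 34576, 46723 and 47867 at 9.7 ℃. Every library of ABA-100 (10.2 ℃) was above every other library, and CK (-5.3 ℃) was lowest, with 37429 ± 1464 TPM against 57498 ± 3281 TPM (mean ± SD, n = 3 each), a fold of 1.54 between the group means on the log scale. CK (-4.1 ℃) replicate 3 and ABA-100 (9.7 ℃) replicate 1 were its lowest libraries, each well below the other libraries of its group.

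DN19787_c1_g1 and DN19695_c0_g1 came next in abundance, at nearly the same mean (21810.3 and 21307 TPM). For DN19787_c1_g1 the libraries of CK had 21364, 24317 and 23080.2 at 10.2 ℃, 20714, 22446 and 15644 at -4.1 ℃, 15684, 15171 and 20697 at -5.3 ℃, and 25085, 23588 and 23864 at 9.7 ℃ (TPM). Those of ABA-100 had 23349, 24619 and 25571 at 10.2 ℃, 22477, 23137 and 22505 at -4.1 ℃, 24870.3, 25381 and 27168 at -5.3 ℃, and 14925, 19756 and 18035 at 9.7 ℃. Its highest group was ABA-100 (-5.3 ℃) and its lowest CK (-5.3 ℃), where replicate 3 (20697 TPM) was far above the other replicates. DN19695_c0_g1 had the same highest and lowest group, with 25167 ± 1163 and 16566 ± 2888 TPM (mean ± SD, n = 3 each), and followed DN19787_c1_g1 with r = 0.953 over the 24 libraries. DN9237_c0_g3 (mean 10035 TPM) moved with both (r = 0.962 and 0.966), so that these 3 members, at 5.32% of all TPM together, differed in level more than in pattern. A further gene of the same component, DN9237_c0_g2, had only 255 TPM and followed DN9237_c0_g3 with r = 0.931.

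DN17056_c1_g1 (mean 18719.5 TPM) had its extremes in the groups where DN24444_c2_g1 had them, in reverse. Its libraries of CK had 19323, 17957 and 17216 at 10.2 ℃, 16388, 16068 and 19897 at -4.1 ℃, 21404, 21798 and 20129.6 at -5.3 ℃, and 17693, 17674 and 21806 at 9.7 ℃ (TPM). Its libraries of ABA-100 had 13476, 13953 and 15201 at 10.2 ℃, 20686, 20838 and 20961 at -4.1 ℃, 18182, 18872 and 16965 at -5.3 ℃, and 20295, 19819.5 and 22670.1 at 9.7 ℃. It was highest in CK (-5.3 ℃), with 21110.3 ± 872 TPM, and lowest in ABA-100 (10.2 ℃), with 14210.0 ± 890.4 TPM (mean ± SD, n = 3 each), where every library was below those of the other groups. With DN24953_c1_g1 its r was -0.840.

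DN3031_c2_g1 (mean 16985 TPM) had the largest range of all members, 0.98 on the log2 scale or a fold of 1.98. The libraries of CK gave 18939, 18729.9 and 20189.5 at 10.2 ℃, 18039, 18705 and 12484 at -4.1 ℃, 11478, 11691 and 15088 at -5.3 ℃, and 16900.1, 16905 and 13257 at 9.7 ℃ (TPM). The libraries of ABA-100 gave 27004, 24346 and 23859 at 10.2 ℃, 15478, 15478 and 15461 at -4.1 ℃, 14952, 15006 and 15309 at -5.3 ℃, and 16332, 16044 and 15971 at 9.7 ℃. The 3 libraries labelled ABA-100 (10.2 ℃) were above every other library, and the other 9 libraries labelled ABA-100 lay between 14952 and 16332 TPM. Without replicate 3 of CK (-5.3 ℃) the range was 1.11, past the limit of the rule, as it also was without replicate 2 or replicate 3 of ABA-100 (10.2 ℃).

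DN11670_c0_g1 (mean 16836 TPM) had a range of 0.31, the smallest of the 12 most abundant members. It had 16324, 16733 and 13268 at 10.2 ℃, 13842, 14029 and 21073 at -4.1 ℃, 17262, 17705 and 16052 at -5.3 ℃, and 16516, 15574 and 21478 at 9.7 ℃ (TPM) in the libraries of CK. In those of ABA-100 it had 16174, 13789.8 and 14758 at 10.2 ℃, 18150.3, 18101 and 19244 at -4.1 ℃, 16214, 16369 and 17763 at -5.3 ℃, and 17516, 18643 and 17474 at 9.7 ℃ (TPM). Its highest libraries were replicate 3 of CK (-4.1 ℃) and of CK (9.7 ℃), and its lowest was replicate 3 of CK (10.2 ℃), so its extreme libraries were not those of its extreme groups.

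DN24953_c1_g1 (mean 11520.1 TPM) stood in a larger set of members, each with r above 0.9 to at least 1 other of the set. It had 12349, 11979 and 11472 at 10.2 ℃, 12236, 12323 and 10913 at -4.1 ℃, 11233, 11405 and 11614 at -5.3 ℃, and 11699, 11976 and 9853 at 9.7 ℃ (TPM) in CK. In ABA-100 it had 14525, 13254 and 13969.8 at 10.2 ℃, 9895, 10001 and 10029 at -4.1 ℃, 12136, 11824 and 12871 at -5.3 ℃, and 9211, 9902 and 9812 at 9.7 ℃ (TPM). The group means of ABA-100 (10.2 ℃) and ABA-100 (9.7 ℃) were its extremes, and DN25523_c0_g1 and DN24809_c0_g1, with means of 9052 and 8725 TPM, had the same highest and lowest group. DN24955_c0_g1 (9252 TPM) and DN24986_c2_g1 (8575 TPM) completed the 12 most abundant members, both highest in ABA-100 (10.2 ℃) and lowest in CK (-5.3 ℃) like DN24444_c2_g1.

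**Figure D2:**
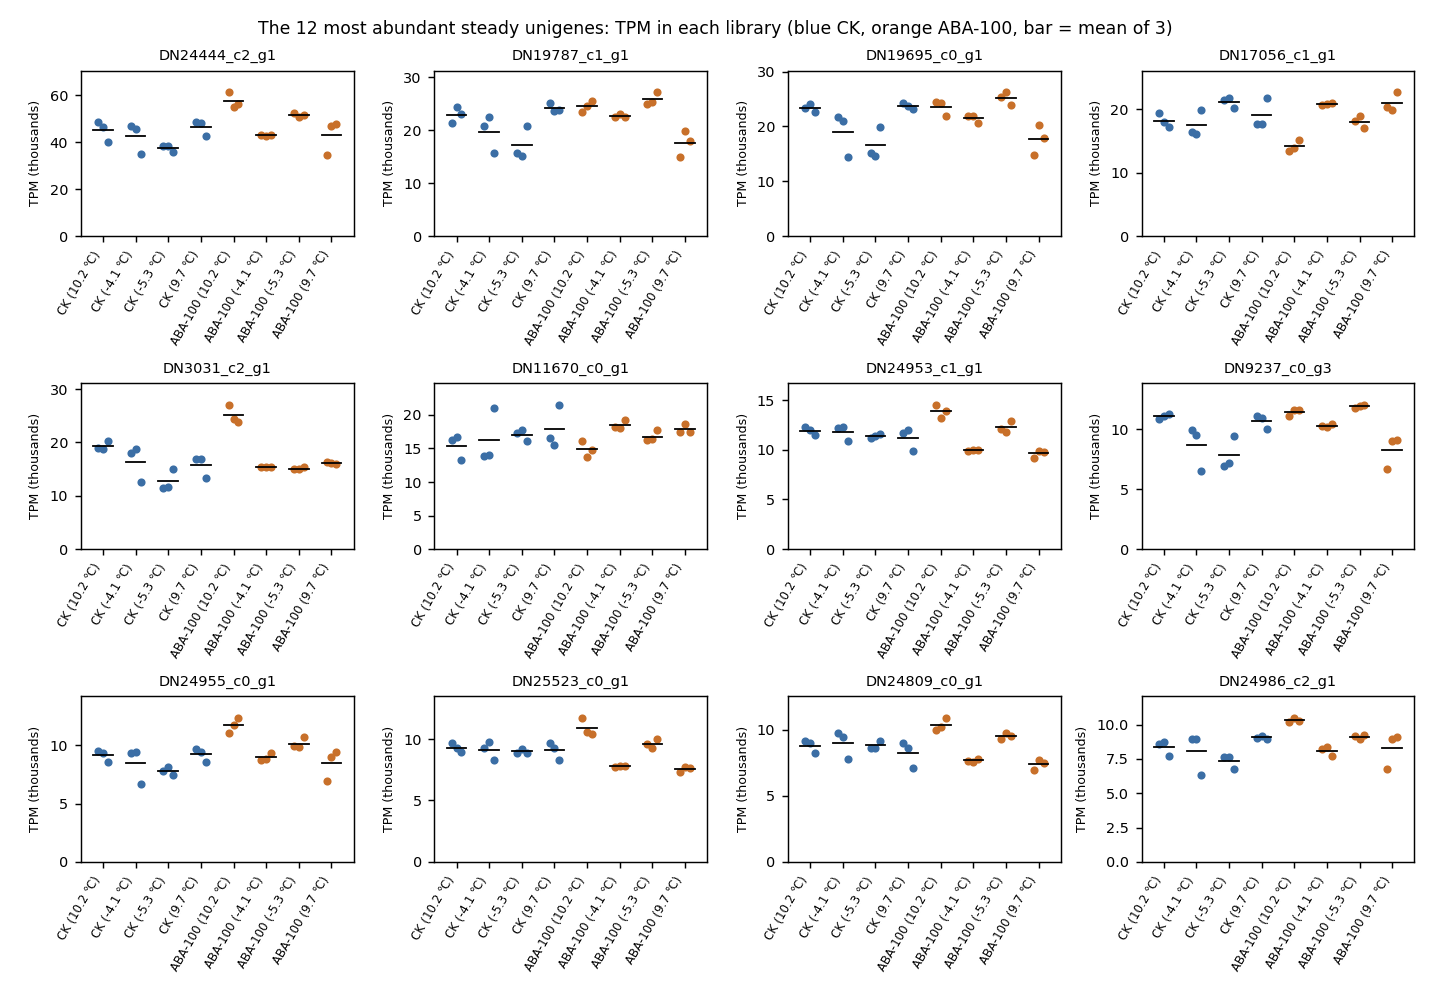
TPM (in units of 1000) of the 12 most abundant members in each of the 24 libraries, points for libraries, bars for the mean of 3, CK in blue and ABA-100 in orange. ABA-100 (10.2 ℃) is the highest group in 7 of the 12 panels, and DN17056_c1_g1 and DN11670_c0_g1 have their lowest group there.

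The group means of a member differed by 0.107 to 0.984 on the log2 scale, with a median of 0.478, a fold of 1.39. Over all 21523 unigenes tested the median range was 0.625, and 56 members had a range below 0.5 while 5 had one of 0.9 or more. The pooled SD of the replicates within groups was 0.04 to 0.49 on the log2 scale, with a median of 0.12 against 0.17 over all unigenes tested. The range was a median of 3.76 times the SD within groups in the members and 3.38 times in all unigenes tested, and since a range over 8 means is above 0 without any change, nothing is read from these ratios. In 95 of the 100 members, the libraries of the highest group did not overlap those of the lowest, where 81.3% of all unigenes tested gave the same result, and since a highest and a lowest group are picked from 8, nothing is read from either share. The 5 with overlap were DN16845_c0_g1, DN24649_c0_g1, DN14271_c0_g1, DN25019_c0_g1 and DN15223_c1_g1, named after their values were seen.

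Among unigenes with a mean above 1000 TPM, 83.1% (98 of 118) were steady by the same limit, against 90.6% from 100 to 1000 TPM, 88.5% from 10 to 100 TPM and 62.8% from 1 to 10 TPM. Up to 1 TPM, where the added 1 holds ranges down, it was 89.7%. The share of steady unigenes was thus not larger at the level of the members than in the 2 classes below it. The median range was 0.52 above 1000 TPM and 0.37 from 100 to 1000 TPM, with a median SD within groups of 0.14 and 0.08.

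DN25435_c1_g1 had the smallest range, 0.11 on the log2 scale or a fold of 1.08 between its group means, at a mean of 1023 TPM. It had 1030.2, 1122 and 1045 at 10.2 ℃, 982, 984 and 999.9 at -4.1 ℃, 1025, 1072 and 1019.6 at -5.3 ℃, and 1069, 1017 and 919 at 9.7 ℃ (TPM) in CK. In ABA-100 it had 1091, 1145 and 867 at 10.2 ℃, 975, 1049 and 972 at -4.1 ℃, 1077, 1067 and 975 at -5.3 ℃, and 961, 1068 and 1012 at 9.7 ℃ (TPM). Its libraries within a group differed about as much as its group means, with a pooled SD of 0.10, and its lowest library was replicate 3 of ABA-100 (10.2 ℃). DN8935_c0_g1 (mean 1182 TPM, range 0.13) had the smallest coefficient of variation over the 24 libraries, 5.10%. Its CK libraries had 1168, 1188 and 1287 at 10.2 ℃, 1172, 1205 and 1299 at -4.1 ℃, 1210.4, 1215 and 1157 at -5.3 ℃, and 1144, 1173 and 1352 at 9.7 ℃ (TPM). Its ABA-100 libraries had 1113, 1152 and 1161 at 10.2 ℃, 1173, 1159.9 and 1186 at -4.1 ℃, 1159.5, 1132 and 1201 at -5.3 ℃, and 1078, 1140.5 and 1131 at 9.7 ℃ (TPM). The 3 libraries of its highest group, CK (-4.1 ℃), were above all 3 of ABA-100 (9.7 ℃), its lowest group, and its highest library was replicate 3 of CK (9.7 ℃). DN2630_c0_g1 followed with a range of 0.15 at 1459 TPM, and its component partner DN2630_c0_g2, with 360.5 TPM, had a range of 0.30.

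DN11003_c1_g1 had the closest replicates of all members, with a pooled SD of 0.04, and a range of 0.20 at a mean of 1388 TPM. It had 1378, 1358 and 1388 at 10.2 ℃, 1292, 1319 and 1348 at -4.1 ℃, 1378, 1431 and 1303 at -5.3 ℃, and 1426, 1452 and 1541 at 9.7 ℃ (TPM) in CK. In ABA-100 it had 1395, 1383 and 1370.1 at 10.2 ℃, 1294, 1313 and 1258 at -4.1 ℃, 1432, 1499 and 1513 at -5.3 ℃, and 1431, 1396 and 1421 at 9.7 ℃ (TPM). All 3 libraries of ABA-100 (-4.1 ℃) were below all 3 of ABA-100 (-5.3 ℃), its highest group. DN24642_c1_g1 (SD 0.04, 1675 TPM) and DN7710_c0_g1 (SD 0.05, 1074 TPM) were next, and DN7710_c0_g1 had 1269, 1282 and 1283 TPM in ABA-100 (10.2 ℃) and no value above 1195 TPM in the other libraries.

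DN16845_c0_g1 was the least uniform within groups, with a pooled SD of 0.49 and a mean of 2521 TPM. In CK it had 1738, 2148 and 4837 at 10.2 ℃, 1971, 4537 and 3985 at -4.1 ℃, 1323, 1331 and 2862 at -5.3 ℃, and 1801, 1582 and 2600.3 at 9.7 ℃ (TPM). In ABA-100 it had 2167, 3177 and 2815 at 10.2 ℃, 2086, 1763 and 2854 at -4.1 ℃, 2051, 1937 and 2754 at -5.3 ℃, and 2261, 2727 and 3204 at 9.7 ℃ (TPM). Replicate 3 was its highest library in 6 of 8 groups, and leaving out CK (-4.1 ℃) replicate 1 or CK (-5.3 ℃) replicate 3 took its range to 1.31, past the limit of the rule. DN15146_c0_g1 (SD 0.44, 2651 TPM) had 2116, 2283 and 5357 TPM in CK (10.2 ℃), a spread like that of DN16845_c0_g1 in the same libraries. DN24649_c0_g1 and DN14271_c0_g1 stood with this pair in a set linked by r above 0.9 and had SDs of 0.36 each. DN11103_c1_g1, just below the limit in abundance, followed DN15146_c0_g1 with r = 0.930.

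DN25019_c0_g1 (SD 0.42, mean 1388 TPM) differed within groups in the opposite direction. It had 1685, 1628 and 856 at 10.2 ℃, 2002, 1701 and 1203 at -4.1 ℃, 1419, 1500.1 and 1562 at -5.3 ℃, and 1579, 1532 and 1021 at 9.7 ℃ (TPM) in CK. In ABA-100 it had 1739.8, 2006 and 1102 at 10.2 ℃, 1311, 1305 and 767 at -4.1 ℃, 1338, 1568 and 647 at -5.3 ℃, and 1200.1, 1341 and 1301 at 9.7 ℃ (TPM). Replicate 3 was its lowest library in 6 of 8 groups, and the lowest value of any member in any library was its replicate 3 of ABA-100 (-5.3 ℃).

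The same libraries carried the spread of most members. The largest deviation of a member from its group mean lay in a library numbered 3 for 76 of the 100 members, and in ABA-100 (9.7 ℃) replicate 1 for 20. CK (-4.1 ℃) replicate 3 alone held it for 38 members. When replicate 3 of every group was left out, an alternative chosen after seeing the data, the median SD within groups of the members was 0.08, against 0.13 without replicate 1 and 0.14 without replicate 2. Over all unigenes tested the corresponding medians were 0.13, 0.17 and 0.18, so the members shared this with the table. The median range of the members moved little, from 0.478 to 0.468, 0.522 and 0.468 without replicate 1, 2 and 3, and 97, 98 and 96 of the 100 were chosen again. Without CK (-4.1 ℃) replicate 3 and ABA-100 (9.7 ℃) replicate 1 alone, also chosen after seeing the data, the median SD was 0.09, lower in 92 members, the median range was 0.472 and 97 members were chosen again. No source used here says what the libraries numbered 3 share, and the cause was not tested.

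**Figure D3:**
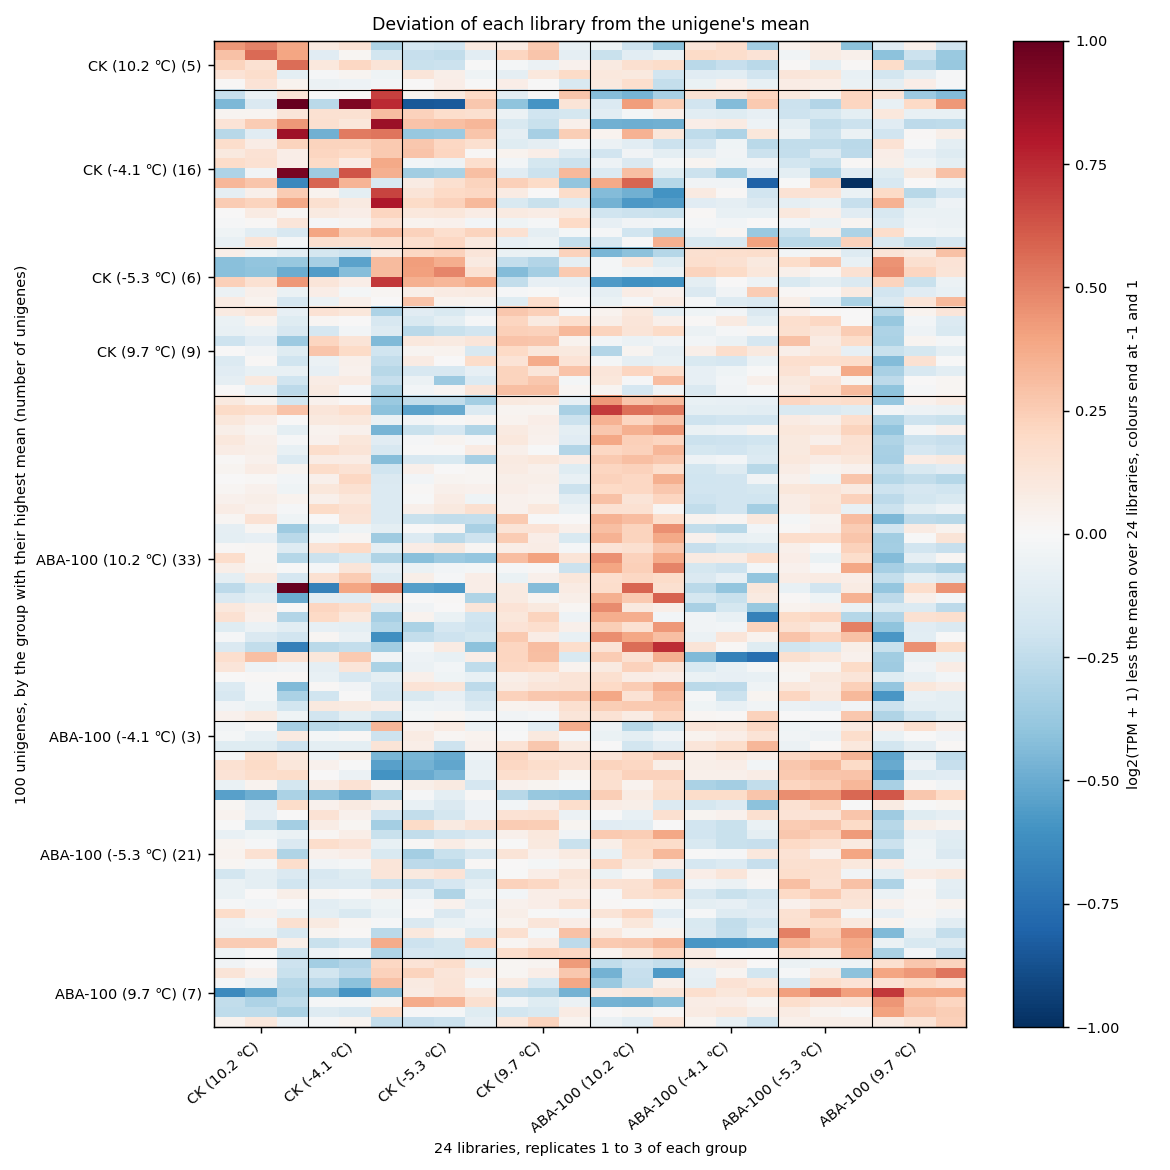
Deviation of log2(TPM + 1) from the mean of each member in the 24 libraries (columns, replicates 1 to 3 of each group) for the 100 members (rows, by the group with their highest mean). The 33 members with their highest mean in ABA-100 (10.2 ℃) form the largest block, and replicate 3 of CK (-4.1 ℃) and replicate 1 of ABA-100 (9.7 ℃) stand out as columns.

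The members took 40.4% of all TPM on average, with 35.3% in the lowest library and 45.0% in the highest. By group the share was 40.3 ± 0.90%, 39.2 ± 1.87%, 37.7 ± 0.556% and 41.3 ± 0.625% in CK at 10.2, -4.1, -5.3 and 9.7 ℃ (mean ± SD, n = 3 each). In ABA-100 it was 44.4 ± 0.510%, 38.8 ± 0.103%, 43.2 ± 0.530% and 38.0 ± 2.37% at the same stages (mean ± SD, n = 3 each). ABA-100 (10.2 ℃), with 45.0, 43.9 and 44.4%, was highest, and ABA-100 (-5.3 ℃), with 43.0, 42.9 and 43.9%, came so close that its replicate 3 differed by under 0.1% from the lowest of these. ABA-100 (9.7 ℃) had 35.3, 39.5 and 39.3%, with replicate 1 far below the others. The 10 most abundant members took 15.8 ± 0.596% in CK (-5.3 ℃) and 20.8 ± 0.573% in ABA-100 (10.2 ℃), and the other 90 took 20.9 ± 0.0563% in ABA-100 (-4.1 ℃) and 23.7 ± 0.121% in ABA-100 (10.2 ℃), the lowest and highest groups of each (mean ± SD, n = 3 each). The steadiness of each member thus left a difference of several percent of all TPM in their sum.

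**Figure D4:**
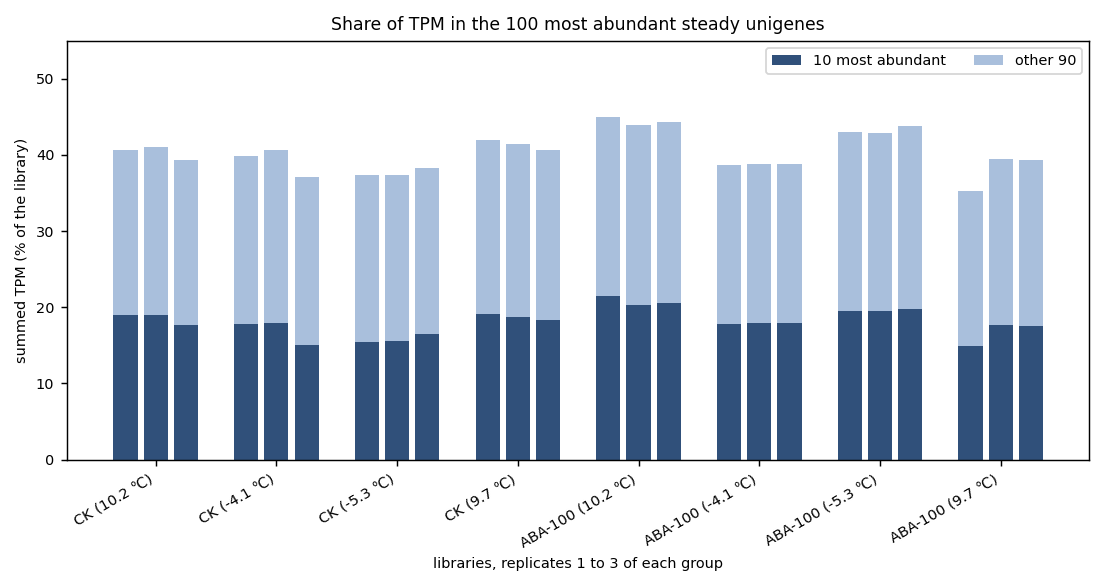
Summed TPM of the members as a percent of each library, dark for their 10 most abundant and light for the other 90, 3 bars per group for replicates 1 to 3. The bars of ABA-100 (10.2 ℃) reach 43.9% to 45.0%, and the lowest bar is replicate 1 of ABA-100 (9.7 ℃) at 35.3%.

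Of the 100 members, 33 had their highest group mean in ABA-100 (10.2 ℃) and 21 in ABA-100 (-5.3 ℃), where 6.95% and 6.07% of all unigenes tested had theirs. The lowest mean lay in ABA-100 (9.7 ℃) for 23 members, in CK (-5.3 ℃) for 21 and in ABA-100 (-4.1 ℃) for 21, against 5.04%, 5.92% and 13.5% of all unigenes tested. In CK, 16 members were highest at -4.1 ℃, 9 at 9.7 ℃, 6 at -5.3 ℃ and 5 at 10.2 ℃, against 18.9%, 9.12%, 16.9% and 11.9% of all unigenes tested. ABA-100 (9.7 ℃) was the highest group of 7 members and ABA-100 (-4.1 ℃) of 3, against 17.5% and 12.7%. The median deviation of the members from their own mean was 0.12 in ABA-100 (10.2 ℃) on the log2 scale, and that of all unigenes tested was -0.12. In ABA-100 (-5.3 ℃) these medians were 0.09 and -0.09, and in ABA-100 (9.7 ℃) they were -0.09 and 0.05. The members and the table as a whole thus lay on opposite sides of their own means in these 3 groups, for TPM as deposited. The members held 40.4% of a fixed total on average, so a larger share of theirs leaves less for the rest. Their group means also chose them, so nothing is read from the opposite sides. In the difference between ABA-100 and CK at 9.7 ℃ both medians were below 0 after quantile normalization (-0.10 and -0.04). In that difference at 10.2 and -5.3 ℃ the medians of members and table stayed opposite after it (0.07 and -0.05, 0.10 and -0.004). Median-of-ratios factors hold the median of the table at 0, so opposite signs at these stages depend on the scaling.

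The members were compared between ABA-100 and CK at each stage and between the stages of CK, with limma over all unigenes tested and a call at an adjusted p of 0.05 or less. These contrasts use the group means that chose the members, so the calls are a description and nothing is read from their number. At 10.2 ℃ 26 members were called higher and 12 lower in ABA-100, 38 in all, where 36.4% of all unigenes tested were called (9.01% higher and 27.4% lower). At -4.1 ℃ the called members were 6 higher and 27 lower, 33 in all, with 33.5% over the table (12% higher and 21.5% lower). At -5.3 ℃ they were 27 higher and 7 lower, 34 in all, with 29.7% over the table (4.57% higher and 25.2% lower). At 9.7 ℃ they were 5 higher and 25 lower, 30 in all, with 23.0% over the table (15.1% higher and 7.96% lower). The median difference of the members was 0.10, -0.06, 0.11 and -0.14 on the log2 scale at the 4 stages, and that of all unigenes tested was -0.14, -0.09, -0.15 and 0.04.

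The libraries were also rescaled by median-of-ratios factors, which moved the median difference of all unigenes to 0. The calls among the members were then 48 higher and 6 lower at 10.2 ℃, with 27% over the table (3206 higher and 2604 lower). At -5.3 ℃ they were 49 higher and 2 lower, with 20.5% over the table (2376 higher and 2027 lower). At 9.7 ℃ they were 4 higher and 31 lower, with 25.2% over the table (2811 higher and 2616 lower). At -4.1 ℃ they were 14 higher and 8 lower, with 30% over the table (3585 higher and 2875 lower). The median of the members turned there from -0.06 to 0.06, so its direction at that stage depends on the scaling. Quantile normalization gave 18 higher and 10 lower, 7 higher and 16 lower, 22 higher and 7 lower, and 6 higher and 16 lower at the 4 stages. Over the table it called 29.6%, 33.2%, 19.6% and 26.7%. At -4.1 ℃ the count was 18 without replicate 3 and 21 without replicate 2 of ABA-100, with 27.5% and 29.5% over the table. At 9.7 ℃ it was 16 without ABA-100 replicate 1, with 18.8% over the table. It was 19 without replicate 1 or replicate 2 of CK, with 19.1% and 19.2% over the table.

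At 10.2 ℃ the member with the largest difference upwards was DN11875_c0_g1, with 1488, 1389 and 1021 TPM in CK (10.2 ℃) and 1810.2, 2423 and 2749 TPM in ABA-100 (10.2 ℃), a fold of 1.79 (log2 0.84, SE 0.17). The libraries of the groups did not overlap, although its ABA-100 libraries differed widely among themselves. Its component holds a second member, DN11875_c0_g2 (mean 3372 TPM against 1687 TPM), which was also highest in ABA-100 (10.2 ℃) and followed it with r = 0.748. DN24882_c1_g1 had the largest difference downwards, with 1978, 1856 and 2260.5 TPM in CK (10.2 ℃) and 1132, 1098 and 1103 TPM in ABA-100 (10.2 ℃), a fold of 0.549 (log2 -0.87, SE 0.13). Its 3 libraries of ABA-100 (10.2 ℃) were its lowest of all 24.

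At -4.1 ℃ DN24863_c0_g1 had 1206, 1087 and 1222 TPM in CK (-4.1 ℃) and 1839, 1773 and 1863 TPM in ABA-100 (-4.1 ℃), a fold of 1.56 (log2 0.64, SE 0.09). At 9.7 ℃ it was again the member with the largest difference upwards, with 1364, 1354 and 1179 TPM in CK (9.7 ℃) and 2670.1, 2124 and 2146 TPM in ABA-100 (9.7 ℃), a fold of 1.77. It was called higher in ABA-100 at all 4 stages and stood closest to DN25390_c0_g1 (r = 0.962), which was called in the same 5 contrasts. DN25498_c0_g1 had the largest difference downwards at -4.1 ℃, with 1786, 1977 and 1612 TPM in CK (-4.1 ℃) and 1214, 1035 and 979.9 TPM in ABA-100 (-4.1 ℃), a fold of 0.600 (log2 -0.74, SE 0.11). Every one of these ABA-100 libraries was below every other library of this member, of which the lowest had 1298 TPM.

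At -5.3 ℃ the most abundant members were among those with the largest differences, with DN19695_c0_g1 at 15145, 14662 and 19889 TPM in CK (-5.3 ℃) and 25329, 26241 and 23933 TPM in ABA-100 (-5.3 ℃), a fold of 1.53 (log2 0.62, SE 0.15). DN24935_c0_g1 had the largest difference downwards, with 2027, 2052 and 2101 TPM in CK (-5.3 ℃) and 1559, 1407 and 1433 TPM in ABA-100 (-5.3 ℃), a fold of 0.711 (log2 -0.49, SE 0.13). At 9.7 ℃ DN22752_c0_g1 had 1878, 1923 and 1936 TPM in CK (9.7 ℃) and 1066, 1519 and 1496 TPM in ABA-100 (9.7 ℃), a fold of 0.702 (log2 -0.51, SE 0.11), and replicate 1 was the lowest of its ABA-100 libraries by far. The libraries of the groups compared did not overlap for any of these, which nearly follows from picking the largest differences, so nothing is read from it.

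Between the stages of CK, fewer members were called, and all 3 of these contrasts share the libraries of CK (10.2 ℃). At -4.1 ℃ against 10.2 ℃ 1 member was called higher and 1 lower, where 1.66% of all unigenes tested were called (0.925% higher and 0.739% lower). At -5.3 ℃ there were 5 higher and 7 lower, with 9.13% over the table (6.67% higher and 2.46% lower). At 9.7 ℃ there were 11 higher and 6 lower, with 9.72% over the table (4.38% higher and 5.35% lower). DN11494_c0_g1, called lower at -4.1 ℃, had 1580.0, 1915 and 1702 TPM in CK (10.2 ℃) and 1191, 1312 and 1139.7 TPM in CK (-4.1 ℃), without overlap, and it was called in 6 of the 7 contrasts, more than any other member. DN25553_c0_g1 had 1091, 1045 and 1004 TPM in CK (10.2 ℃) and 1474, 1331 and 1389 TPM in CK (-4.1 ℃), the largest difference upwards, which was not called. The member called higher at -4.1 ℃ was DN10824_c0_g1, named after its values were seen, with 1342, 1285 and 1332 TPM in CK (10.2 ℃) and 1579, 1569 and 1621 TPM in CK (-4.1 ℃).

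DN10824_c0_g1 (mean 1612 TPM) also had the largest range for its spread, 11.6 times its SD within groups. It had 2049.7, 2004 and 1773 TPM at -5.3 ℃ and 1549, 1457 and 1524 TPM at 9.7 ℃ in CK. Its ABA-100 libraries had 1146, 1141 and 1191 at 10.2 ℃, 1673, 1666 and 1618 at -4.1 ℃, 1796, 1723 and 1752 at -5.3 ℃, and 2162, 1902 and 1840.5 at 9.7 ℃ (TPM). In ABA-100 its group mean was higher at each later stage, and in CK it was highest at -5.3 ℃.

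At -5.3 ℃ against 10.2 ℃ DN24924_c0_g1 had 2238, 2264 and 2114 TPM in CK (10.2 ℃) and 3972, 4181 and 3326 TPM in CK (-5.3 ℃), a fold of 1.73 (log2 0.79, SE 0.18). In CK (-4.1 ℃) it had 2027, 2226 and 3712 TPM and in CK (9.7 ℃) 2207, 2362 and 3582 TPM, so replicate 3 lay apart at both stages. DN16845_c0_g1 had 1738, 2148 and 4837 TPM in CK (10.2 ℃) and 1323, 1331 and 2862 TPM in CK (-5.3 ℃) and a log2 difference of -0.61 (SE 0.37) that was not called. At 9.7 ℃ against 10.2 ℃ DN11875_c0_g1 had 1488, 1389 and 1021 TPM in CK (10.2 ℃) and 1908, 2041 and 1863 TPM in CK (9.7 ℃), and DN13072_c2_g1 had 1584, 1548 and 1723 TPM in CK (10.2 ℃) and 1192, 1134 and 1215 TPM in CK (9.7 ℃), the largest differences upwards (log2 0.59) and downwards (log2 -0.45). The count at 9.7 ℃ fell from 17 to 2 without CK (10.2 ℃) replicate 3, with 6.02% over the table. It fell to 5 to 8 without any other library of that contrast, with 6.37% to 7.41% over the table. At -5.3 ℃ it was 7 without replicate 1 or 2 of CK (-5.3 ℃), with 5.73% and 5.76% over the table. The count at -4.1 ℃ was 1 without replicate 1 or replicate 2 of CK (10.2 ℃) or replicate 1 of CK (-4.1 ℃), with 0.79%, 0.906% and 1.13% over the table. The median difference of the members there, 0.02, turned to -0.01 under median-of-ratios factors. Under median-of-ratios factors the calls at 9.7 ℃ were 11 higher and 2 lower, with 10.4% over the table. With quantile normalization they were 7 higher and 6 lower, with 10.5% over the table.

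**Figure D5:**
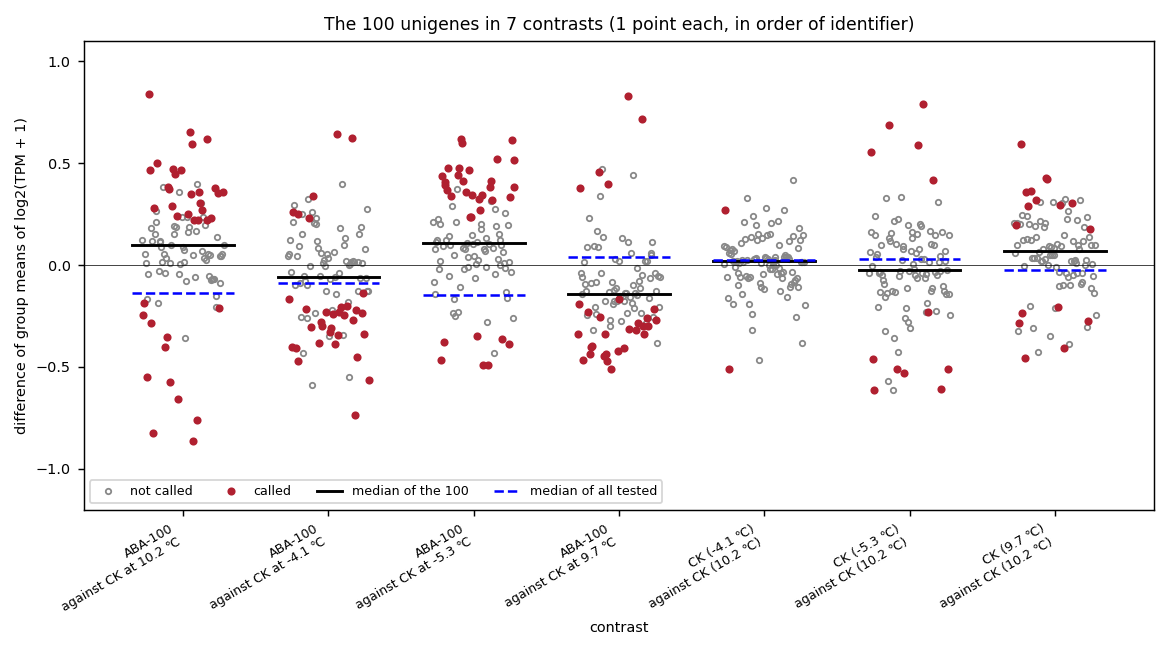
Differences of group means of log2(TPM + 1) for the 100 members (points, filled where called) in 4 contrasts of ABA-100 against CK and 3 between stages of CK, with the median of the members (solid) and of all unigenes tested (dashed). At 10.2 and -5.3 ℃ the medians of the members are 0.10 and 0.11 and those of the table -0.14 and -0.15.

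Any difference among the 8 groups was called for 77 of the 100 members, where 59.6% of all unigenes tested were called. This test also uses the group means that chose the members, so nothing is read from the count. Without replicate 1 or replicate 2 of every group it was called for 26 members and for 35.7% and 35.5% of the table, and without replicate 3 for 77 members and 55.6%. Over the 7 contrasts, 25 members were called in none, 25 in 1, 27 in 2, 10 in 3, 9 in 4, 3 in 5 and 1 in 6. A difference between ABA-100 and CK that itself differed between stages by more than 1 on the log2 scale was called for 1 member, DN13072_c2_g1, where 8.05% of all unigenes tested were called. The rule kept the group means of a member less than 1 apart, which leaves little room to pass this limit, so nothing is read from the low count. DN13072_c2_g1 had 1584, 1548 and 1723 TPM in CK (10.2 ℃) and 953, 892 and 899 TPM in ABA-100 (10.2 ℃), and 1192, 1134 and 1215 TPM in CK (9.7 ℃) and 1691, 1222 and 1279 TPM in ABA-100 (9.7 ℃). Without replicate 1 of ABA-100 (9.7 ℃) limma called 0 members (0 at an unadjusted p under 0.05 with the same limit of 1), and without any other single library 1 to 4.

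Over the 24 libraries the 4950 pairs of members had Pearson's r on the log2 scale from -0.880 to 0.977, with a median of 0.110. These values are a description of 24 points that share libraries, groups and the fixed total of TPM. Pairs with r above 0.9 numbered 44 and joined 37 members into 9 sets. A member joined a set through such a pair with at least 1 of its members, so other pairs within a set can have a lower r. The largest set had 10 members and 6.18% of all TPM, among them DN24953_c1_g1, DN25523_c0_g1 and DN24809_c0_g1, and its mean deviation was 0.24 in ABA-100 (10.2 ℃) and -0.22 in ABA-100 (9.7 ℃), its extremes. DN24444_c2_g1 stood in a set of 5 with DN24955_c0_g1 (r = 0.950), DN24986_c2_g1 (0.945), DN21673_c0_g1 (0.921) and DN14168_c1_g1 (0.907), at 6.83% of all TPM, with 0.34 in ABA-100 (10.2 ℃) and -0.23 in CK (-5.3 ℃). Another set joined DN24882_c1_g1, DN24935_c0_g1 and DN13072_c2_g1 and had the reverse pattern, with 0.34 in CK (-4.1 ℃) and -0.54 in ABA-100 (10.2 ℃). DN21673_c0_g1 and DN24882_c1_g1 were the most opposed pair (r = -0.880), and 371 pairs had r below -0.5. The steady members were thus not one group that moved as a whole, and 30 of them had a negative r with DN24444_c2_g1.

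Some features that the choice did not use were shared by many members. In their Trinity component 93 of the 100 members were the only gene, which held for 55.2% of all unigenes of the table. The other 7 comprised the pair of DN11875 and 5 members beside genes that were no members, and of the most abundant such gene in each of these 5 components the highest was DN2630_c0_g2 (360.5 TPM) and the lowest DN4677_c0_g1 (0.578 TPM). Of these 5 genes, 4 were steady, and DN9480_c0_g2 (122 TPM) was not, with a range of 1.20. A cluster number of 24000 or more was carried by 44 of the members and by 13.9% of the table, and by 7 of the 20 unigenes of the same abundance that were not steady. The whole table is not matched to the members in abundance, with 16252 of its unigenes at a mean above 0 and up to 1 TPM. The share alone in their component was not taken for unigenes of the members' abundance. These shares were not tested, so no trait of steady unigenes is read from them, and near-identical copies of a gene in the assembly could share reads with a member.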

How the data were processed

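Reads were cleaned by the authors (SeqPrep, Sickle) and assembled *de novo* (Trinity), RSEM gave the abundances, and the deposited table holds TPM, a length-corrected abundance, for 33344 unigenes in 24 libraries, with totals of 999999 to 1000001. TPM keeps no read counts of unigenes, so no counting interval is given. The study lists the clean reads of each library, and they were not used here. The table had 0 sample columns that could not be mapped and no columns of the authors' own comparisons.

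TPM values were converted to log2(TPM + 1). The 21523 unigenes that reached 1 TPM in 3 or more libraries were fitted over all 24 libraries with limma 3.58.1 in R 4.3.3 (trended variance, group means, Benjamini-Hochberg adjustment, two-sided, calls at an adjusted p of 0.05 or less), after the script had been tested on simulated data. Other values and the plots were made with Python 3.11.15, pandas 2.3.3, numpy 2.4.6 and matplotlib 3.10.9. SE is that of limma's moderated test. The p-values rest on the spread between replicates within groups, labelled as biological, pooled over the 8 groups and moderated across unigenes. No pair of libraries held identical values.

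The members and lists were chosen with earlier results of these data known. The members named are the 12 most abundant, those with the smallest and largest range and SD within groups, those next to either limit, and the largest difference in each direction of each contrast, and others are said to be chosen after their values were seen or are named as partners of these in a component or by likeness. No source says that a replicate number marks one seedling, so the fit had no block. It took the libraries as independent, although the same seedlings were sampled at each stage. Deviations of same-numbered libraries from their group means correlated with r of -0.0987 to 0.285 (84 pairs of libraries, 7 above 0.1). The 84 hold pairs within a treatment and pairs of CK with ABA-100, and all 7 lay within CK or within ABA-100. Alternatives were another pseudocount, filter, scaling, range limit and variance model, a replicate block, the libraries of a contrast alone, and each library left out. Leaving out CK (-4.1 ℃) replicate 3 with ABA-100 (9.7 ℃) replicate 1, or one replicate number in every group, was added after seeing the data.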

Additional observations from a re-analysis of the deposited data

Results flagged for a closer look

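For DN13072_c2_g1 the difference between ABA-100 and CK at 9.7 ℃ lay 1.05 (SE 0.19) on the log2 scale above that at 10.2 ℃. The difference was 0.23 (SE 0.14) at 9.7 ℃, which was not called. At 10.2 ℃ it was -0.82 (SE 0.14), between leaves that by the methods had not yet been sprayed. DN13072_c2_g1 was the one member for which limma's test of the change between these stages passed both limits. Its group means had served to choose it, so this is a description. The libraries had 892 to 953 TPM in ABA-100 (10.2 ℃), where CK (10.2 ℃) had 1548 to 1723 TPM. Without ABA-100 (9.7 ℃) replicate 1, with 1691 TPM its highest library in that group, the test called 0 members.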

How the results depend on the processing

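The choice of the members changed little, with 97 to 100 of the 100 chosen again when any single library was left out and 91 chosen in all 24 such runs, while a range limit of 0.5 kept 56. The number of steady unigenes, 27919, became 13485 with a pseudocount of 0.1, 16364 with the filter and 15580 with a limit of 0.5, and the share of the members in all TPM became 35.8% without DN24444_c2_g1. Counts of members called changed when single libraries were left out, and the shares of all unigenes tested that were called changed too. With each library of a contrast left out in turn, the counts were 18 to 36 at -4.1 ℃ (27.5% to 31.5% of the table) and 16 to 31 at 9.7 ℃ (18.8% to 20.7%) for ABA-100 against CK. Against 10.2 ℃ in CK they were 1 to 2 at -4.1 ℃ (0.79% to 1.84%), 7 to 13 at -5.3 ℃ (5.73% to 9.74%) and 2 to 8 at 9.7 ℃ (6.02% to 7.41%). For the stage dependence they were 0 to 4 (7.36% to 8.95%). Without replicate 1 and without replicate 2 of every group, ABA-100 against CK gave 22 and 20 at 10.2 ℃, 10 and 9 at -4.1 ℃, 12 and 13 at -5.3 ℃, and 4 and 12 at 9.7 ℃. The shares of the table were 23.3% and 23.1%, 21.4% and 21.3%, 16% and 13.9%, and 10.9% and 11.5%. CK against 10.2 ℃ gave 0 and 0 at -4.1 ℃ (8 and 6 at an unadjusted p under 0.05 in limma), 3 and 2 at -5.3 ℃, and 1 and 0 at 9.7 ℃ (19 at an unadjusted p under 0.05 without replicate 2). Here the table had 0.116% and 0.079%, 2.43% and 1.81%, and 2.28% and 1.25%. Any difference gave 26 and 26 (35.7% and 35.5% of the table), and the stage dependence gave 4 without replicate 2 (5.34%). Without replicate 3 of every group, ABA-100 against CK at 9.7 ℃ gave 49 (24.9% of the table), the CK contrasts 6, 21 and 9 (3.86%, 16.6% and 9.9%), and the stage dependence 2 (8.73%). These fits had fewer samples, and why replicate 3 differed from the others was not tested. With the 6 libraries of a contrast alone, the counts were 13 at -4.1 ℃ and 6 at 9.7 ℃ for ABA-100 against CK (24.6% and 12.5% of the table), and 0 (6 at an unadjusted p under 0.05 in limma), 5 and 1 for CK at -4.1, -5.3 and 9.7 ℃ (0.107%, 3.73% and 3.12%). Without the filter, ABA-100 against CK at 9.7 ℃ gave 19 (14.5%) and CK at 9.7 ℃ gave 6 (5.24%), which was 11 without the trend (8.84%). The stage dependence gave 5 with median-of-ratios factors (7.15%) and 2 with quantile normalization (6.99%). Without CK (-4.1 ℃) replicate 3 and ABA-100 (9.7 ℃) replicate 1, CK at -4.1 ℃ gave 4 (2.43%) and the stage dependence 0 (8.35%), also 0 at an unadjusted p under 0.05 in limma. With the replicate block, the 4 contrasts of ABA-100 against CK gave 41, 35, 35 and 28 (36.4%, 33.3%, 29.4% and 22.7%). Those of CK gave 3, 12 and 17 (1.51%, 8.87% and 9.32%), any difference 76 (59.1%) and the stage dependence 1 (8.05%). The block moved no count by more than 1.5 times. It joined libraries of the same number across CK and ABA-100, which are different seedlings, so it cannot show what pairing within a treatment would change. Replicate numbers were not taken as pairs because no source ties a number to a seedling. Of 84 same-number correlations over all unigenes tested 7 were above 0.1, all of them within CK or within ABA-100. The 84 also hold pairs of a CK with an ABA-100 library, which come from different seedlings, so 7 of 84 is no measure of pairing within a treatment. All 9 correlations among ABA-100 at 10.2, -4.1 and -5.3 ℃ were positive (0.0637 to 0.285), as were all 9 among CK at 10.2, -4.1 and 9.7 ℃ (0.0150 to 0.235). Of 24 libraries, 13 correlated best with their own number, so pairing of some libraries is not settled. Of the values of the 49 unigenes named by rule, 739 moved by less than the spread between replicates and 45 by more. These values were the range of the group means and the SD within groups under each alternative. The SD was thus set against itself, a limit that it can hardly pass, so nothing is read from this tally. Depth, which TPM does not keep and for which the study lists clean reads, was not weighed.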
